A study of Homo sapiens with 48 samples.

Results

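The 4 Rag GTPase genes (RRAGA, RRAGB, RRAGC and RRAGD), the folliculin gene FLCN with its partners FNIP1 and FNIP2, and 3 genes of the same lysosomal circuit, MITF, SLC38A9 and DEPTOR, were followed through all 16 treatment groups of a lung cancer cell line. These 10 genes were chosen by symbol from the 27978 symbols of the count table, with earlier results of these data known. All 10 were present, and all 10 were among the 15789 genes that passed the filter on low counts.

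Rag GTPases work as pairs, RagA or RagB bound to RagC or RagD, that sit on the lysosome and bring the kinase complex mTORC1 to its surface when amino acids are plentiful. Folliculin, bound to FNIP1 or FNIP2, activates the GTPase activity of RagC and RagD, and this branch lets mTORC1 phosphorylate the transcription factors TFEB, TFE3 and MITF (the MiT/TFE family) and hold them in the cytoplasm. When they enter the nucleus these factors bind DNA elements built around CACGTG and switch on lysosomal genes, and RRAGC, RRAGD, FLCN and FNIP2 are themselves known targets of the family. SLC38A9 is an arginine sensor of the lysosomal membrane, and DEPTOR is a protein that binds and inhibits mTOR.

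The cells were H1975, an established human non-small cell lung cancer line with mutated EGFR, the receptor at which gefitinib is aimed. Whether gefitinib blocked EGFR in these cells was not measured. Bulk RNA was sequenced from 48 libraries, 3 biological replicates in each of 16 groups, all of the same line. The groups were cells left untreated and taken at 0 h or at 24 h, and cells taken at 24 h after gefitinib (50 or 75 µM), after compound kushen injection (CKI, a herbal preparation; 1 or 2 mg/mL), after a preparation that the labels name only as YFSJ (2.5 or 5 mg/mL), or after gefitinib together with CKI or with YFSJ, in all pairs of doses. By its title the study asks about resistance to gefitinib; what was measured is transcript levels in 1 line. The catalogue number in the labels is that of the breast line MCF-7. The median over libraries reached 1 CPM (counts relative to the size of the library) for 7 of 8 genes of a lung epithelial list. Medians on that list were 157 to 1620 CPM for EPCAM, KRT7, KRT8, KRT18 and KRT19, 44.7 for NKX2-1, 1.93 for NAPSA and 0.0431 for SFTPB. It was reached for 0 of 5 luminal breast genes, of which PGR had no count in any library. In bulk RNA, fewer cells of a type and less RNA per cell cannot be told apart.

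Libraries held 16428398 to 26264162 counts, so a count of 3 corresponded to 0.107 to 0.193 CPM. Levels are given in CPM scaled by trimmed-mean (TMM) factors. Differences are log2 fold changes ± SE from edgeR's quasi-likelihood test on all 48 libraries, with Benjamini-Hochberg adjustment over the 15789 genes, and "rose" or "fell" means an adjusted p under 0.05. Some libraries stood apart. In 10 of them (all 3 of YFSJ 2.5 mg/mL, all 3 of CKI 2 with gefitinib 75, 2 of CKI 2 with gefitinib 50, and 2 of CKI 1 with gefitinib 75) the liver gene ALB had 2581 to 3557 counts, against 0 to 8 in the other 38. Summed over 8 liver genes the level ran from 44.4 to 308 CPM over the 48 libraries, and only SERPINA1 had a median of at least 1 CPM. A model with a term for these 10 libraries was also fitted, and its value is given where it ends or adds a call and for some other results that rest on them. Only CKI 2 with gefitinib 50 and CKI 1 with gefitinib 75 held libraries of both kinds, so the term is estimated from these groups. In YFSJ 2.5 and CKI 2 with gefitinib 75 every library is an ALB library, so the term is carried over and widens the SE. A call lost there can come from the wider SE alone, and a call kept is not cleared of the difference. At 0 h, libraries 1 and 2 had 1.22% and 1.69% of counts on mitochondrial ribosomal RNA (RNR2), against 0.457% in library 3. The highest share of the series was 2.18%, in library 2 of YFSJ 2.5 with gefitinib 75. Libraries of CKI 2 with gefitinib 75 had 1.39% to 1.56%.

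Promoters were read because the circuit is partly its own target, and the 3 stretches printed here hold the core CACGTG before the start. RefSeq windows (GRCh38.p14, 300 bases long and mostly before a gene's start) were found for 7 of the 10 genes. RRAGA, RRAGD and DEPTOR had none, so their promoters were not searched. FNIP2, MITF and SLC38A9 had more than 1 window, and a gene is counted if any of its windows held the sequence. The shares of all promoters are per window. CACGTG, which reads the same on both strands, was in 3 of the 7 genes with a window (RRAGB, RRAGC and FNIP1) and in 7.26% of 35116 promoter windows of the same length. RRAGB held it 3 times, starting 115 and 25 bases before the start and at base 8 after it; 0.094% of all windows hold it at least 3 times. FNIP1 held it 2 times, at 175 and 94 bases before the start, and 0.664% of windows hold it at least 2 times. The stretches are printed 5′ to 3′ on the strand of the gene, in lower case with CACGTG in capitals.
RRAGB, chrX:55717614-55717738, plus strand: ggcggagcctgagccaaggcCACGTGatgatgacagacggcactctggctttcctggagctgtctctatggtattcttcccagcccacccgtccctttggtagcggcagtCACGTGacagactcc
RRAGC, chr1:38859859-38859904, minus strand: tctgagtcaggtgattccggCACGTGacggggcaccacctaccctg
FNIP1, chr5:131797086-131797212, minus strand: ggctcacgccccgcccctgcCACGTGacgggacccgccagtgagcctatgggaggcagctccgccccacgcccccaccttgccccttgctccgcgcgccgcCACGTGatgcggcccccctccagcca

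The longer form TCACGTGA was in 1 of the 7 (RRAGB, around the site at 25 bases) and in 0.98% of all windows. A second MITF-type element, TCATGTG, was in 1 of the 7 genes (FNIP2, 142 bases before the start of its second RefSeq window) and in 2.92% of windows, both strands searched. TTGCATCA, the stress-response element bound by ATF4, was in 0 of the 7 and in 0.866% of windows. These matches describe the letters of the windows; binding was not measured.

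RRAGD gave the widest range of the 10 genes. RagD is the partner that, with RagC, is switched by folliculin. In untreated cells at 24 h its 3 libraries had 0.49, 0.515 and 0.326 CPM, from 6 to 10 counts each, and at 0 h they had 0.427, 0.544 and 0.295 CPM. Under CKI 2 mg/mL the libraries had 8.38, 8.57 and 8.71 CPM (152 to 220 counts), the highest mean of the 16 groups. Every CKI 2 library was above every untreated library, and the group mean rose from 0.444 ± 0.103 to 8.55 ± 0.165 CPM (SD, n = 3), 4.26 ± 0.23 on the log2 scale (adjusted p = 2.04e-19).

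RRAGD also rose under CKI 1 and gefitinib. CKI 1 mg/mL gave 2.64, 3.15 and 2.27 CPM, a rise of 2.58 ± 0.26 on the log2 scale (adjusted p = 1.15e-10). Gefitinib gave 3.03, 2.02 and 2.42 CPM at 50 µM and 2.84, 2.79 and 2.71 CPM at 75 µM, log2 fold changes of 2.47 ± 0.27 and 2.64 ± 0.26. Between the CKI doses RRAGD rose by a further 1.67 ± 0.17 (adjusted p = 2.59e-10), while between the gefitinib doses the difference was 0.17 ± 0.20 (adjusted p = 1). YFSJ left it at 0.458 ± 0.107 CPM at 2.5 mg/mL and 0.533 ± 0.199 CPM at 5 mg/mL, with log2 differences of 0.07 ± 0.35 and 0.28 ± 0.34, from 7 to 17 counts per library. The single-agent comparisons all use the same 3 untreated libraries.

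With gefitinib added, the RRAGD libraries lay below those of CKI 2 alone and above those of CKI 1 alone. The libraries of CKI 2 with gefitinib 50 had 7.46, 7.08 and 7.38 CPM and those of CKI 2 with gefitinib 75 had 7.30, 5.69 and 5.78 CPM, all below the 3 CKI 2 libraries. Adding gefitinib 75 to CKI 2 lowered RRAGD by a log2 difference of -0.45 ± 0.15 (adjusted p = 0.0232), a call that did not hold with the term for the 10 ALB libraries (-0.58 ± 0.23, adjusted p = 0.0678), nor without CKI 2 library 3 (-0.44, adjusted p = 0.0644) or library 2 or 3 of the combination (-0.39 each, adjusted p = 0.101 and 0.104). CKI 1 with gefitinib had 5.15 ± 0.408 CPM at 50 µM and 5.18 ± 0.461 CPM at 75 µM, above both agents alone, with log2 fold changes of 0.94 ± 0.17 and 0.95 ± 0.17 over CKI 1 (adjusted p = 2.35e-05 and 1.42e-05). YFSJ with gefitinib ran from 2.29 ± 0.541 to 3.74 ± 0.425 CPM, next to gefitinib alone in the order. Ordered by mean level, 11 of the 15 neighbouring pairs of groups overlapped; the breaks lay below CKI 2, below CKI 2 with gefitinib 75, below CKI 1 with gefitinib 50, and below YFSJ 5 with gefitinib 50, which separates all gefitinib and CKI groups from the untreated and YFSJ groups.

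**Figure D1:**
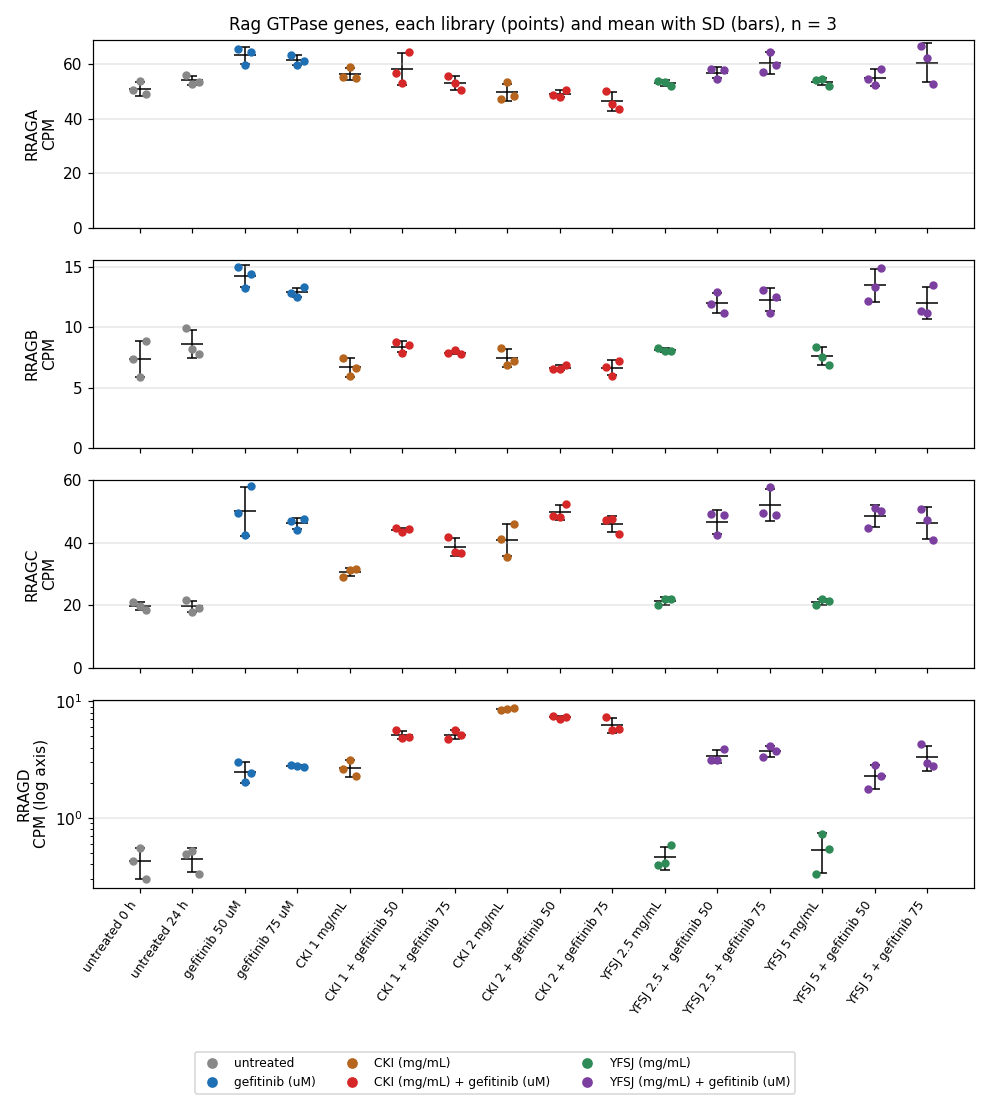
Levels of the 4 Rag GTPase genes in CPM (vertical axes; RRAGD on a log axis) in the 16 groups, with a point for each library and bars for the mean and SD of 3 libraries. RRAGD lies between 0.295 and 0.728 CPM in the untreated and YFSJ groups and reaches 8.71 CPM under CKI 2 mg/mL, while RRAGA stays between group means of 46.3 and 63.1 CPM.

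RRAGC, the close relative of RRAGD, rose with gefitinib and with CKI. Untreated cells at 24 h had 21.7, 18 and 19.3 CPM. Gefitinib gave 49.7, 42.5 and 58.2 CPM at 50 µM and 47, 44.2 and 47.6 CPM at 75 µM, log2 fold changes of 1.35 ± 0.10 (adjusted p = 3.44e-15) and 1.23 ± 0.10 (adjusted p = 6.89e-14). CKI gave 29.1, 31.4 and 31.6 CPM at 1 mg/mL and 41.1, 35.6 and 46 CPM at 2 mg/mL, log2 fold changes of 0.64 ± 0.10 and 1.05 ± 0.10, and the step between these doses was 0.41 ± 0.10 (adjusted p = 0.00122). No gefitinib or CKI library overlapped the untreated ones. With CKI 2 added to gefitinib the level was 49.7 ± 2.35 and 46 ± 2.53 CPM, log2 differences from gefitinib alone of -0.01 ± 0.10 at both doses. YFSJ alone gave 21.5 ± 1.23 and 21.2 ± 0.965 CPM, within the untreated range or just above it.

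Per kilobase of the longest annotated transcript, RRAGC was the main one of the pair throughout. RRAGD made up 1.25 ± 0.319% of the summed RRAGC and RRAGD level in untreated cells, 3.25 ± 0.164% under gefitinib 75, 4.66 ± 0.74% under CKI 1 and 10.5 ± 1.17% under CKI 2 (SD, n = 3). The 3 CKI 2 libraries had 9.54% to 11.8%, above all libraries of CKI 2 with gefitinib, which had 6.26% to 7.91%. RRAGC and a locus annotated on the same strand in GENCODE v29 share 42.3% of the 50-base words of its transcript. If the counting annotation held that locus, which was not checked, RRAGC counts depend on how such reads were assigned. RRAGA, RRAGB, RRAGD, FNIP2, MITF and SLC38A9 share none with any other annotated gene.

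RRAGA and RRAGB encode the partners of RagC and RagD. RRAGA was steady, with group means from 46.3 to 63.1 CPM and all 15 neighbouring pairs of groups overlapping. It rose under gefitinib by log2 differences of 0.23 ± 0.08 at 50 µM (adjusted p = 0.0139) and 0.19 ± 0.08 at 75 µM (adjusted p = 0.0438). The first call was lost without gefitinib 50 library 1 (0.20, adjusted p = 0.056), and the second without gefitinib 75 library 1 or 3 or untreated library 2 or 3 (0.16 to 0.19, adjusted p = 0.0791 to 0.127). With CKI 2 added, RRAGA fell from its gefitinib level by 0.36 ± 0.08 at 50 µM (adjusted p = 0.000137) and by 0.41 ± 0.08 at 75 µM (adjusted p = 2.53e-05). These differences were, with the term for the ALB libraries, -0.34 ± 0.10 and -0.37 ± 0.12 (adjusted p = 0.00419 and 0.00833).

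RRAGB separated gefitinib from CKI. Untreated cells at 24 h had 9.95, 8.18 and 7.76 CPM. Gefitinib 50 gave 15, 13.2 and 14.4 CPM and gefitinib 75 gave 12.8, 12.5 and 13.3 CPM, log2 fold changes of 0.71 ± 0.12 (adjusted p = 1.81e-06) and 0.57 ± 0.12 (adjusted p = 7.45e-05). CKI 1 gave 7.47, 5.93 and 6.58 CPM, all below the untreated libraries at 24 h, and differed from them by -0.38 ± 0.12 (adjusted p = 0.0179). Untreated libraries at 0 h had 5.87 to 8.89 CPM, a range that holds the CKI 1 libraries. The call did not pass without CKI 1 library 2 or 3 (-0.30 and -0.37, adjusted p = 0.106 and 0.0526) or untreated library 1 (-0.26, adjusted p = 0.171). Nor did it pass under library-size scaling, without the filter on low counts or in a fit of only the libraries compared. CKI 2 gave 8.27, 6.86 and 7.16 CPM, -0.23 ± 0.12 (adjusted p = 0.123).

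When both agents were present, RRAGB was below its gefitinib level in every library. The 12 libraries of the CKI and gefitinib combinations ran from 5.99 to 8.78 CPM, and the 6 of gefitinib alone from 12.5 to 15 CPM. Against gefitinib alone the log2 fold changes were -0.76 ± 0.12 and -0.70 ± 0.12 with CKI 1 and -1.10 ± 0.12 and -0.95 ± 0.12 with CKI 2 (adjusted p from 1.92e-10 to 6.21e-06). With the term for the ALB libraries those with CKI 2 were -1.11 ± 0.15 and -0.98 ± 0.18. The YFSJ and gefitinib combinations had 11.2 to 14.9 CPM, with no difference from gefitinib alone past the threshold. As a share of RRAGA and RRAGB per kilobase, RRAGB was 11 ± 1.03% in untreated cells, 14.8 ± 0.239% and 13.9 ± 0.429% under gefitinib 50 and 75, and 9.45 ± 0.0545% and 9.98 ± 1.17% when CKI 2 was added.

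FLCN, the catalytic subunit of the folliculin complex, was the most abundant of the 3 complex genes per kilobase, at 15.6 ± 0.917 CPM per kilobase in untreated cells against 3.83 ± 0.377 for FNIP1 and 1.39 ± 0.197 for FNIP2. Its untreated libraries at 24 h had 53.8, 56.4 and 60.4 CPM. Gefitinib 50 gave 115, 119 and 99 CPM and gefitinib 75 gave 106, 106 and 111 CPM, log2 fold changes of 0.96 ± 0.09 (adjusted p = 1.79e-12) and 0.92 ± 0.09 (adjusted p = 7.14e-12). CKI 1 gave 71.1, 80.4 and 73.6 CPM and CKI 2 gave 95.8, 104 and 101 CPM, log2 fold changes of 0.40 ± 0.09 (adjusted p = 0.000567) and 0.82 ± 0.09 (adjusted p = 2.81e-10). FLCN was highest where CKI 2 and gefitinib 75 were combined.

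In that combination the 3 libraries had 147, 157 and 154 CPM, above every other library of the series. Their RNR2 shares were 1.56%, 1.39% and 1.54%, and whether FLCN follows RNR2 was not tested. FLCN there was higher than with gefitinib 75 alone by 0.51 ± 0.09 (adjusted p = 3.96e-06) and than with CKI 2 alone by 0.61 ± 0.09 (adjusted p = 1.18e-06). All 3 libraries of this group are among the 10 with ALB counts; with a term for those, the differences were 0.60 ± 0.13 (adjusted p = 0.00018) and 0.70 ± 0.13 (adjusted p = 0.000167). CKI 2 with gefitinib 50 had 127, 125 and 117 CPM, 0.15 ± 0.09 above gefitinib 50 (adjusted p = 0.158). CKI 1 with gefitinib 50 was lower than gefitinib 50 by a log2 difference of -0.23 ± 0.09 (adjusted p = 0.0396), which was lost without library 1 or 3 of the combination or library 1 or 2 of gefitinib 50 (adjusted p from 0.0985 to 0.198). In that comparison 3 of the 10 genes fell. The number was 2 under library-size scaling, without the filter on low counts and in a fit of only the libraries compared. A same-strand locus shares 28.5% of the 50-base words of FLCN.

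FNIP2, a partner that stabilises folliculin on the Rag GTPases, rose with gefitinib and with CKI. Untreated cells at 24 h had 11.1, 8.5 and 9.17 CPM. Gefitinib 50 gave 23.9, 22.7 and 29.8 CPM and gefitinib 75 gave 21.5, 23.8 and 23.6 CPM, log2 fold changes of 1.40 ± 0.13 (adjusted p = 3.59e-12) and 1.25 ± 0.14 (adjusted p = 1.02e-10). CKI 1 gave 13.5, 13 and 13.5 CPM and CKI 2 gave 21.3, 16.4 and 22.4 CPM, log2 fold changes of 0.47 ± 0.14 (adjusted p = 0.00791; 0.39, adjusted p = 0.0574 without untreated library 2) and 1.05 ± 0.13 (adjusted p = 1.2e-08). All treated libraries of these 4 groups lay above the untreated ones.

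FNIP1, its paralog, had smaller log2 fold changes. Its untreated mean was 25.2 ± 2.49 CPM, and gefitinib 50, gefitinib 75 and CKI 2 gave 35.5 ± 3.47, 33.8 ± 2.63 and 35.1 ± 4.12 CPM, log2 fold changes of 0.49 ± 0.12, 0.42 ± 0.12 and 0.47 ± 0.12 (adjusted p = 0.000574, 0.00298 and 0.000935). CKI 1 gave 26.5 ± 2.96 CPM, 0.07 ± 0.12 (adjusted p = 0.716). The FNIP2 share of the 2 partners per kilobase went from 26.5 ± 0.853% in untreated cells to 40.5 ± 2.06% and 39.3 ± 1.3% under gefitinib 50 and 75 and 35.1 ± 1.01% under CKI 2, with no overlap between the untreated and these treated libraries.

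**Figure D2:**
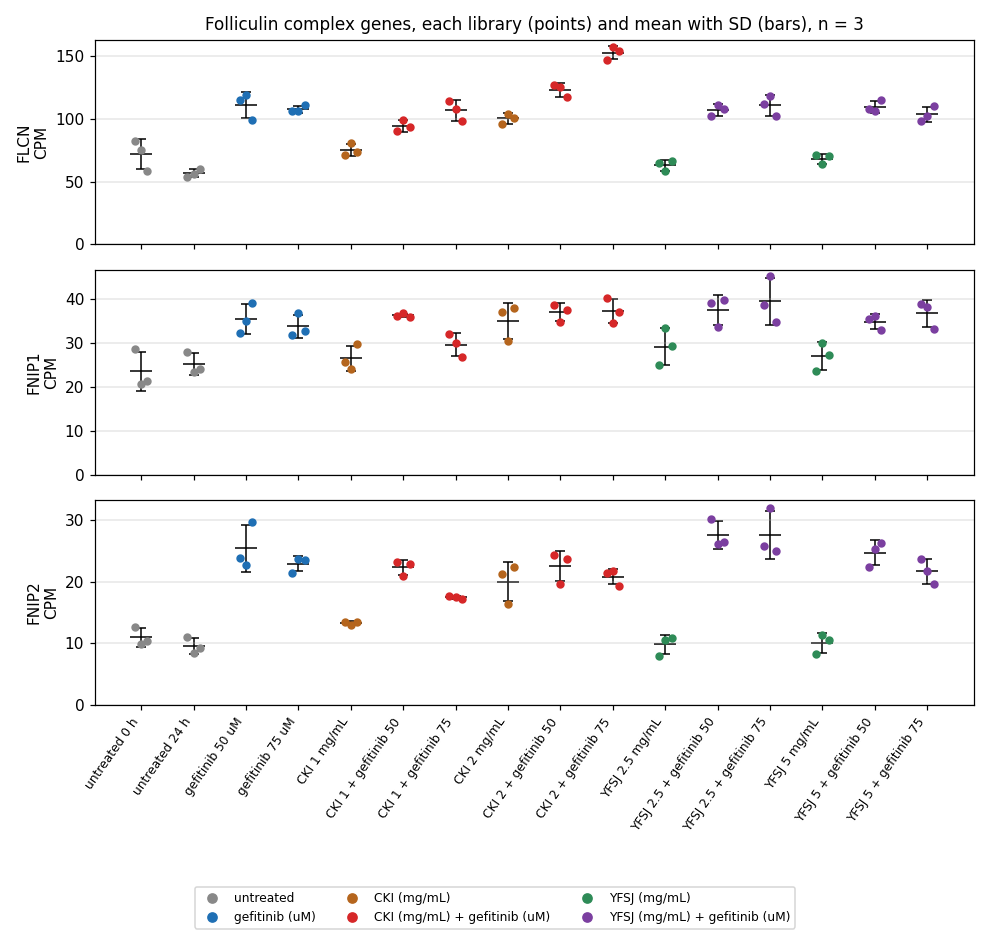
Levels of FLCN, FNIP1 and FNIP2 in CPM in the 16 groups, with a point for each library and bars for the mean and SD of 3 libraries. FLCN reaches its highest mean, 153 CPM, under CKI 2 with gefitinib 75; FNIP2 goes from 9.60 CPM in untreated cells at 24 h to at most 27.6 CPM under YFSJ 2.5 with gefitinib 50.

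MITF, the member of the transcription factor family with the best known role in pigment cells, fell slightly under gefitinib. Its untreated libraries had 38.1, 31.4 and 31.8 CPM. Gefitinib 50 gave 26.8, 27.7 and 28.2 CPM and gefitinib 75 gave 27.4, 27.7 and 28 CPM, log2 fold changes of -0.30 ± 0.10 (adjusted p = 0.0115) and -0.29 ± 0.10 (adjusted p = 0.014). The groups did not overlap, but both calls were lost without untreated library 1 (-0.20 and -0.19, adjusted p = 0.128 and 0.147) and under library-size scaling (-0.19 and -0.20, adjusted p = 0.14 and 0.131). Of 6 pigment cell genes, PMEL alone had a median of at least 1 CPM (1.97 CPM), and TYR, TYRP1 and SOX10 had medians of 0.

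With CKI 2 added to gefitinib, MITF was in the untreated range or just above it. CKI 2 with gefitinib 50 had 37.3, 33.5 and 38.4 CPM and CKI 2 with gefitinib 75 had 39.2, 37.0 and 35.5 CPM, above all gefitinib libraries by log2 differences of 0.40 ± 0.10 (adjusted p = 0.000743) and 0.42 ± 0.10 (adjusted p = 0.000327). With the term for the ALB libraries the second difference was 0.46 ± 0.15 (adjusted p = 0.00841). CKI 2 alone had 29.6, 27.4 and 31.6 CPM, -0.20 ± 0.10 against untreated cells (adjusted p = 0.0943).

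SLC38A9 varied little: its group means ran from 14 CPM (YFSJ 2.5) to 19.2 CPM (CKI 2), and all 15 neighbouring pairs overlapped. No single agent moved it past the threshold in edgeR's test with TMM scaling, the nearest being CKI 2 at 0.23 ± 0.10 (adjusted p = 0.0585). For CKI 2 it passed in DESeq2 (0.25, adjusted p = 0.0438), with relative log expression factors (0.25, adjusted p = 0.0419), under library-size scaling (0.43, adjusted p = 0.0013) and without CKI 2 library 2 (0.28, adjusted p = 0.0423). It rose from CKI 1 to CKI 2 by 0.27 ± 0.10 (adjusted p = 0.0415), fell when gefitinib 75 was added to CKI 2 by 0.28 ± 0.10 (adjusted p = 0.0315), and rose when gefitinib 50 was added to YFSJ 2.5 by 0.25 ± 0.10 (adjusted p = 0.0423; 0.32, adjusted p = 0.0948 with the term for the ALB libraries). None of these 3 calls held without the filter on low counts (adjusted p = 0.127, 0.0725 and 0.101), and each was lost when any of 4 of its 6 libraries was left out: library 2 or 3 of CKI 1 or 1 or 3 of CKI 2 (0.20 to 0.28), library 1 or 3 of CKI 2 or 2 or 3 of its combination (-0.20 to -0.30), and library 2 or 3 of YFSJ 2.5 or 1 or 3 of its combination (0.18 to 0.27).

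DEPTOR, the mTOR inhibitor, went in opposite directions under gefitinib and CKI. Untreated cells at 24 h had 19.2, 19.6 and 17.5 CPM. Gefitinib 50 gave 31.2, 29.7 and 31.1 CPM and gefitinib 75 gave 28.9, 28.6 and 26.3 CPM, log2 fold changes of 0.71 ± 0.12 (adjusted p = 1.51e-06) and 0.58 ± 0.12 (adjusted p = 5.13e-05). CKI 2 gave 10.4, 12.7 and 11.6 CPM, a difference of -0.69 ± 0.12 (adjusted p = 7.12e-06), and CKI 1 gave 18.2 ± 1.8 CPM, -0.04 ± 0.12 (adjusted p = 0.842). The gefitinib libraries were all above, and the CKI 2 libraries all below, the untreated ones at 24 h. Untreated libraries at 0 h had 11.6 to 17.2 CPM, a range that the CKI 2 libraries overlapped.

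With CKI 2 and gefitinib together, DEPTOR was below the untreated level at 24 h, while the 3 libraries of CKI 1 with gefitinib 50 (20.8, 22 and 20.4 CPM) were above it. CKI 2 with gefitinib 50 had 13.4, 14.5 and 15.7 CPM and CKI 2 with gefitinib 75 had 9.46, 10.8 and 10.8 CPM, all below the untreated 24 h range, with log2 fold changes of -1.08 ± 0.12 (adjusted p = 2.04e-10) and -1.44 ± 0.12 (adjusted p = 1.47e-13) against gefitinib alone. With the term for the ALB libraries the latter was -1.75 ± 0.17 (adjusted p = 2.29e-11). CKI 1 added to gefitinib lowered DEPTOR by log2 fold changes of -0.54 ± 0.11 at 50 µM and -0.89 ± 0.12 at 75 µM, to 21.1 ± 0.843 and 15.2 ± 3.63 CPM; with the term the value at 75 µM was -1.12 ± 0.14. YFSJ combinations kept 26.7 to 36.3 CPM, with no change from gefitinib alone that passed. On the opposite strand a locus overlaps 252 exon bases of DEPTOR, and the libraries do not mark strand.

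**Figure D3:**
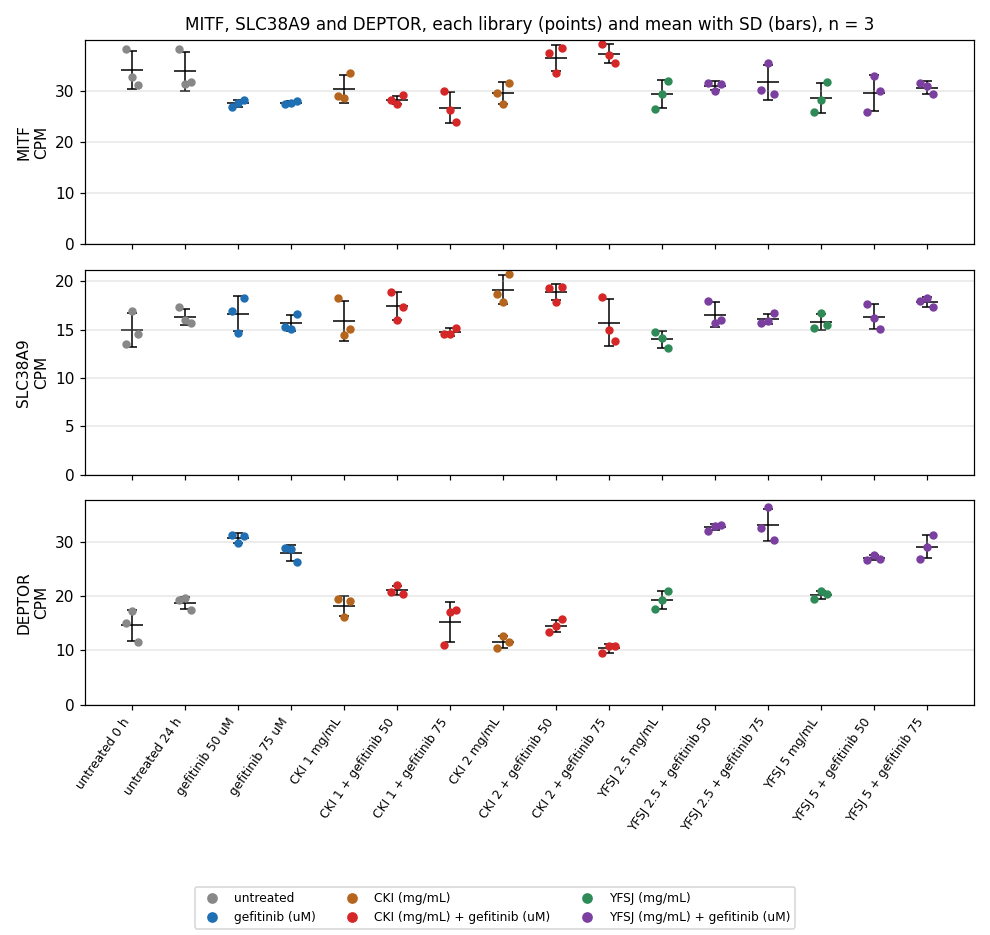
Levels of MITF, SLC38A9 and DEPTOR in CPM in the 16 groups, with a point for each library and bars for the mean and SD of 3 libraries. DEPTOR ranges from a mean of 10.3 CPM under CKI 2 with gefitinib 75 to 33.1 CPM under YFSJ 2.5 with gefitinib 75; the group means of MITF span 26.7 to 37.2 CPM and those of SLC38A9 span 14 to 19.2 CPM.

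Counted over the 10 genes against untreated cells at 24 h, gefitinib 50 raised 8 and lowered 1, where 27.6% of all genes tested rose and 26.8% fell. The 10 were chosen with earlier results of these data known, so their counts beside these shares are descriptions and test nothing about the set. Gefitinib 75 also raised 8 and lowered 1, against 27.6% and 27.1% of all genes. CKI 1 raised 4 and lowered 1, with 13.2% of genes higher and 14.7% lower, and CKI 2 raised 5 and lowered 1, with 24.1% higher and 27.1% lower. From CKI 1 to CKI 2, 6 rose and 1 fell (RRAGC, RRAGD, FLCN, FNIP1, FNIP2 and SLC38A9 up, DEPTOR down), with 15.1% and 17.6% of all genes. Of these, FNIP1 (0.40 ± 0.12) did not pass without CKI 1 library 2 or CKI 2 library 3 (0.34 each, adjusted p = 0.0526 and 0.0503). YFSJ changed 0 of the 10 at 2.5 mg/mL (2.93% of all genes changed) and 0 at 5 mg/mL (6.48%) in edgeR's test; at an unadjusted p under 0.05 the counts were 2 and 2, and DESeq2 called 0 and 1, the 1 being FLCN (0.27, adjusted p = 0.0393). All 3 libraries of YFSJ 2.5 are ALB libraries, and with the term for them the 463 genes called there became 48 and the 59 called between the YFSJ doses became 0. For YFSJ 2.5 the term is carried over from other groups and widens the SE, so the lost calls cannot be assigned to the ALB libraries. Between the gefitinib doses 0 passed (0.0317% of all genes), and between the YFSJ doses 0 passed (0.374%), with 0 at an unadjusted p under 0.05 and 0 by DESeq2 in both. The shares of all genes in this paragraph are those of edgeR's adjusted test. None is given for the unadjusted p or for DESeq2, so those counts have no background beside them.

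**Figure D4:**
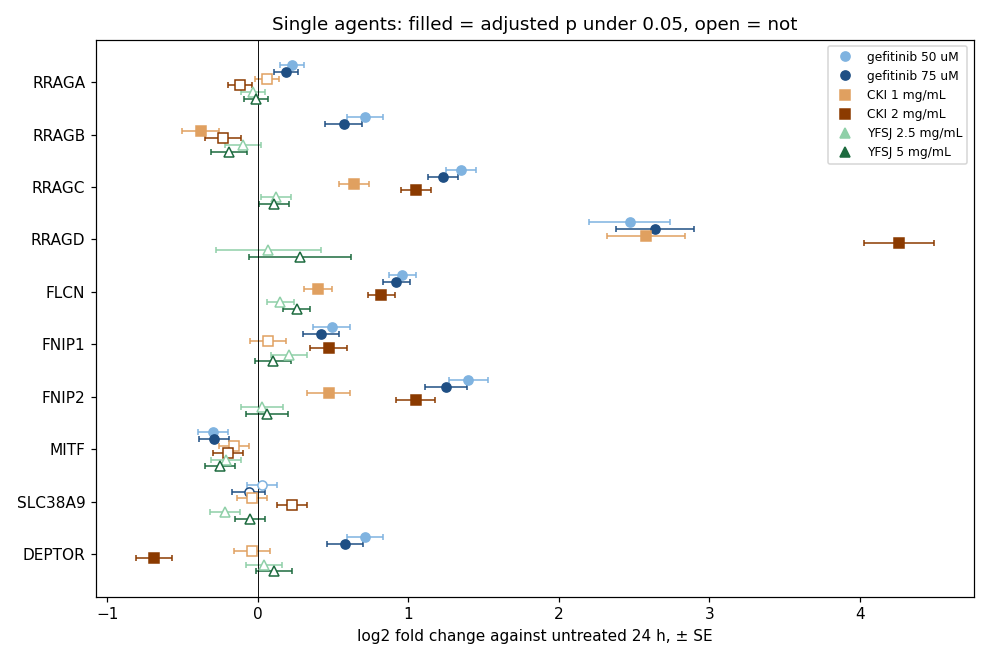
Log2 fold changes of the 10 genes against untreated cells at 24 h (horizontal axis, with SE bars) for the 6 single-agent groups; filled symbols have an adjusted p under 0.05. RRAGD under CKI 2 mg/mL stands furthest to the right at 4.26, DEPTOR lies on either side of 0 for gefitinib and CKI 2, and all YFSJ symbols are open.

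Against gefitinib alone, CKI 1 raised 1 (RRAGD) and lowered 3 (RRAGB, FLCN and DEPTOR) at 50 µM, with 15.5% of all genes higher and 16.2% lower. At 75 µM it raised RRAGD by 0.90 ± 0.18 and lowered 5 (RRAGA, RRAGB, RRAGC, FNIP2 and DEPTOR), with 17.3% higher and 17.3% lower. Of those 5, RRAGA at -0.21 ± 0.08 and RRAGC at -0.26 ± 0.10 did not pass with the term for the ALB libraries (adjusted p = 0.141 and 0.169), nor without library 2 or 3 of the combination or library 1 or 3 of gefitinib 75 (adjusted p from 0.0658 to 0.124). CKI 2 raised 2 (RRAGD and MITF) and lowered 3 (RRAGA, RRAGB and DEPTOR) at 50 µM, with 26.6% and 27.1% of all genes, and raised 3 (RRAGD, FLCN and MITF) and lowered the same 3 at 75 µM, with 28.8% and 29.4%. RRAGD was higher than with gefitinib alone in all 4 pairings, by log2 differences of 0.90 to 1.56.

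YFSJ added to gefitinib changed 0 of the 10 in any of its 4 pairings in edgeR's test, where 0.0887%, 1.83%, 0.937% and 3.46% of all genes changed (2.5 with 50, 2.5 with 75, 5 with 50 and 5 with 75). At an unadjusted p under 0.05 the counts were 2, 3, 1 and 0, and DESeq2 called 0 in each. No share of all genes is given for the unadjusted p or for DESeq2. The largest of these differences was RRAGD at 0.45 ± 0.19 with YFSJ 2.5 and gefitinib 50 (adjusted p = 0.652).

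Adding gefitinib to a preparation gives the same question from the other side. Added to YFSJ 2.5 it changed 8 of the 10 at either dose (53.9% and 51.5% of all genes), and added to YFSJ 5 it changed 7 at either dose (52.9% and 51.4%), all upward. RRAGC, RRAGD, RRAGB, FLCN, FNIP1, FNIP2 and DEPTOR were among them in each of these 4 comparisons, with RRAGD at 2.09 ± 0.25 to 3.00 ± 0.24. Against YFSJ 2.5, FNIP1 did not pass with the term for the ALB libraries (0.34 and 0.41, adjusted p = 0.128 and 0.0605). With gefitinib 50 it did not pass without YFSJ 2.5 library 1 (0.26, adjusted p = 0.0891) or, in the other comparison, YFSJ 5 library 1 (0.28, adjusted p = 0.0738). RRAGA rose when gefitinib 75 was added to YFSJ 2.5 (0.19 ± 0.08, adjusted p = 0.0433), a call lost with that term (0.15, adjusted p = 0.325) and without any library of YFSJ 2.5 or library 2 or 3 of the combination (0.14 to 0.20, adjusted p from 0.0636 to 0.19). Added to CKI 1 it changed 6 at 50 µM (39% of all genes) and 4 at 75 µM (47.7%), all upward, with FNIP2 at 0.74 ± 0.13 and 0.39 ± 0.13, the latter not past the threshold with the term for the ALB libraries (0.31, adjusted p = 0.104). With that term DEPTOR fell when gefitinib 75 was added to CKI 1 (-0.50 ± 0.14, adjusted p = 0.00387, against -0.27 ± 0.12, adjusted p = 0.0556, without it), as it did without CKI 1 library 2 or library 2 or 3 of the combination (-0.35 to -0.38, adjusted p from 0.0149 to 0.0256). RRAGB, at 0.33 ± 0.12 with gefitinib 50, was lost without library 2 or 3 of CKI 1 or 1 or 3 of the combination (0.26 to 0.33, adjusted p from 0.0661 to 0.144). Added to CKI 2 it changed 2 at 50 µM (11.1% of all genes), FLCN by 0.29 ± 0.09 and MITF by 0.30 ± 0.10. MITF no longer passed with the term for the ALB libraries (0.33 ± 0.12, adjusted p = 0.0934). Each of these was lost without any of 4 libraries: FLCN without CKI 2 library 1 or 3 or combination library 1 or 2 (adjusted p from 0.0643 to 0.105), MITF without CKI 2 library 1 or 2 or combination library 1 or 3 (adjusted p from 0.0931 to 0.148). Added to CKI 2 at 75 µM it changed 4 (30.1%): FLCN and MITF rose, RRAGD and SLC38A9 fell. With the term for the ALB libraries, FLCN alone of these 4 passed, with MITF at 0.37 ± 0.14 (adjusted p = 0.0657) and SLC38A9 at -0.36 (adjusted p = 0.0902), and DEPTOR fell (-0.48 ± 0.17, adjusted p = 0.0395).

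Whether a combination differs from the sum of its agents was tested as the log2 change of the combination less those of the 2 agents, averaged over 4 dose pairs. For CKI with gefitinib this was positive in 1 gene and negative in 7, with 20% of all genes higher and 19.5% lower than the sum. RRAGD fell short of the sum by the most, -2.25 ± 0.27 (adjusted p = 3.04e-09), from -1.53 ± 0.33 with CKI 1 and gefitinib 50 to -3.09 ± 0.31 with CKI 2 and gefitinib 75. FNIP2 followed at -0.98 ± 0.14 (adjusted p = 2.73e-07) and RRAGC at -0.96 ± 0.11 (adjusted p = 8.39e-10). DEPTOR was at -0.62 ± 0.13, RRAGB at -0.58 ± 0.13, FLCN at -0.51 ± 0.10 and RRAGA at -0.24 ± 0.08 (adjusted p = 9.99e-05, 0.000335, 3.06e-05 and 0.0182). MITF was above the sum, at 0.38 ± 0.11 (adjusted p = 0.00345). A sum of log2 changes multiplies the folds, and the untreated RRAGD level was 0.444 CPM, from 6 to 10 counts per library. In CPM, RRAGD had 2.69 under CKI 1, 2.49 under gefitinib 50 and 5.15 under both. Under CKI 2 it had 8.55 CPM, under gefitinib 75 it had 2.78 CPM and under both it had 6.25 CPM. With the term for the ALB libraries RRAGD was at -2.33 ± 0.29, FNIP2 at -1.06 ± 0.16, RRAGC at -0.93 ± 0.13, DEPTOR at -0.81 ± 0.14 and MITF at 0.40 ± 0.12, while RRAGA no longer passed (-0.22 ± 0.10, adjusted p = 0.0757), nor did it without untreated library 2 (-0.23, adjusted p = 0.0541).

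Falling short of the sum had different forms. RRAGC and FNIP2 with CKI 2 and gefitinib differed from neither agent alone past the threshold in edgeR's test. The RRAGC libraries of CKI 2 with gefitinib 50 (48.2 to 52.5 CPM) still lay above those of CKI 2 alone (35.6 to 46 CPM). RRAGB and DEPTOR rose with gefitinib, and in the combinations with CKI 2 all their libraries were below the untreated ones at 24 h. FLCN rose beyond either agent with CKI 2 and gefitinib 75 and was still -0.31 ± 0.13 short of the sum in that pair. For YFSJ with gefitinib 0 of the 10 differed from the sum (1.7% of all genes did) in edgeR's test, 2 had an unadjusted p under 0.05, and DESeq2 called 1, MITF at 0.37 (adjusted p = 0.0277). Of these rules only edgeR's adjusted test has a share of all genes beside it. In edgeR MITF was at 0.38 ± 0.11 (adjusted p = 0.0509) and passed when any of 8 libraries was left out (gefitinib 50 library 3, YFSJ 2.5 library 3, YFSJ 5 library 3, library 1 or 3 of YFSJ 2.5 with gefitinib 75, library 1 or 3 of YFSJ 5 with gefitinib 50, and library 3 of YFSJ 5 with gefitinib 75; adjusted p from 0.0351 to 0.0484).

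**Figure D5:**
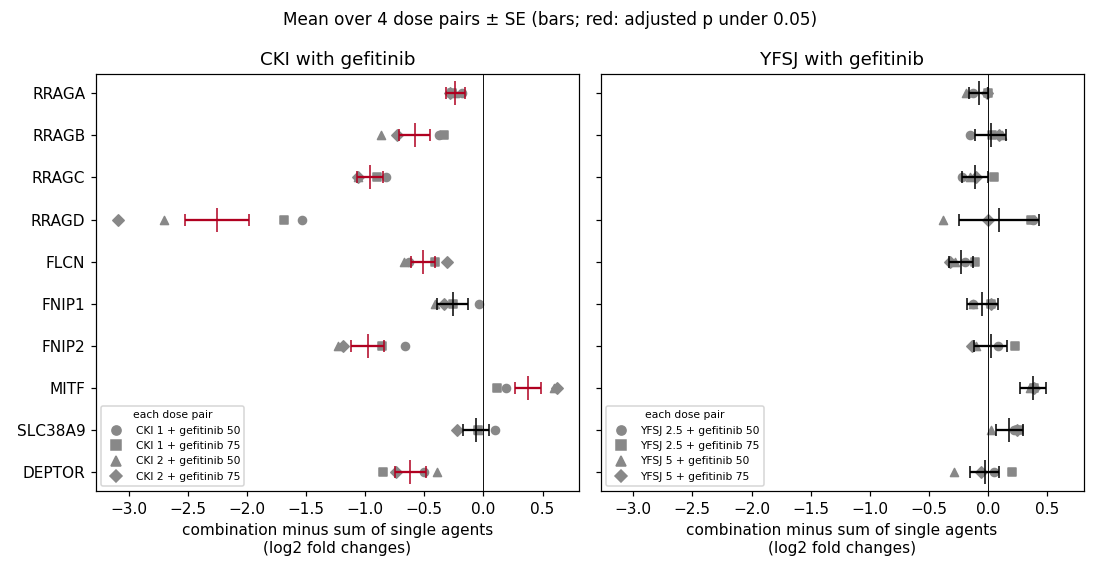
Log2 change of each combination less the sum of the changes of its agents (horizontal axes), for CKI (left) and YFSJ (right) with gefitinib; grey symbols are the 4 dose pairs and bars the mean ± SE, red where the adjusted p is under 0.05. With CKI the mean of RRAGD lies at -2.25 and that of MITF at 0.38, and with YFSJ all 10 means lie between -0.23 and 0.38 with none red.

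From 0 h to 24 h in untreated cells 2 of the 10 changed, where 25.2% of all genes did, a share close to theirs: FLCN fell by 0.34 ± 0.09 (adjusted p = 0.00514) and DEPTOR rose by 0.36 ± 0.12 (adjusted p = 0.0243). FLCN had 82.3, 75.3 and 58.5 CPM at 0 h, and the 2 high libraries are the 2 with more RNR2 counts; against library 3 alone the difference was -0.04 (adjusted p = 0.968), and without library 1 it was -0.23 (adjusted p = 0.121). DEPTOR had 15, 17.2 and 11.6 CPM at 0 h, and its call was lost without library 1 or 3 at 0 h or library 1 or 2 at 24 h (0.22 to 0.38, adjusted p from 0.0646 to 0.18). RRAGD differed by 0.09 ± 0.38. Over all genes the 3980 calls became 93 in a fit of only these 6 libraries and 147 against 0 h library 3 alone.

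The wider circuit was read from 9 lists of pathway genes, also chosen with earlier results of these data known. Their counts stand beside 27.6% of all genes higher and 27.1% lower under gefitinib 75, and 24.1% higher and 27.1% lower under CKI 2. The 5 Ragulator genes, which anchor the Rag GTPases to the lysosome, had 0 higher and 1 lower under gefitinib 75 (LAMTOR5, -0.50 ± 0.10) and 0 higher and 1 lower under CKI 2 (LAMTOR1, -0.20 ± 0.08), near the shares of all genes that were lower. Of 7 genes of the mTOR complexes, 2 were lower under gefitinib 75, MTOR itself at -0.45 ± 0.11 and MAPKAP1, an mTORC2 subunit, at -0.41 ± 0.08, and 1 was higher (RICTOR, 0.41 ± 0.12) and 1 lower (MAPKAP1, -0.59 ± 0.08) under CKI 2. Medians of the 2 lists under gefitinib 75 were 0.01 and -0.25, beside 0.02 for all genes. Of 7 genes of GATOR1 and its anchor KICSTOR, which inactivate RagA and RagB, 1 was higher and 2 lower under CKI 2 (C12orf66, 0.43 ± 0.11, and KPTN, -0.64 ± 0.14, with the largest changes).

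Among the amino acid sensors, SESN2 had the largest changes. Of 7 genes, 3 were higher and 0 lower under gefitinib 75 and 4 higher and 0 lower under CKI 2, with medians of 0.28 and 0.87 beside 0.02 and -0.01 for all genes. SESN2, a leucine sensor also induced by stress, rose from 14.2 to 73.2 CPM under gefitinib 75 (2.36 ± 0.10) and to 95.7 CPM under CKI 2 (2.75 ± 0.10). CASTOR1, an arginine sensor, rose under gefitinib 75 (1.39 ± 0.19), and SESN3 under CKI 2 (1.26 ± 0.21). Under YFSJ 5, SESN2 rose by 0.35 ± 0.11 (adjusted p = 0.0375).

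Of 5 GATOR2 genes 2 were higher and 1 lower under gefitinib 75 (WDR24, 0.42 ± 0.14; SEH1L, -0.77 ± 0.11) and 2 higher under CKI 2 (MIOS, 0.31 ± 0.11; WDR59, 0.29 ± 0.09), and with so few genes these and the next counts are read only as values beside the shares of all genes. Of 4 tested genes of the TSC complex and its target RHEB, 2 were higher and 2 lower under gefitinib 75, TSC2 at 0.72 ± 0.14 and RHEB at -0.56 ± 0.08 among them, and 1 higher under CKI 2 (TSC1, 0.35 ± 0.12). Of 5 tested AMPK subunit genes, 2 were higher and 1 lower under gefitinib 75 (PRKAB1, 0.46 ± 0.10; PRKAA1, -0.52 ± 0.12), and 2 higher under CKI 2 (PRKAB1, 0.70 ± 0.10; PRKAB2, 0.61 ± 0.11).

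Of the 3 relatives of MITF, 2 were tested (TFE3 and TFEB), and TFEC did not pass the filter on low counts. Under gefitinib 75, where MITF fell slightly, 1 was higher and TFEB did not pass. Under CKI 2 these 2 were higher, and MITF itself did not pass. TFE3 rose by 0.51 ± 0.10 under gefitinib 75 and 0.49 ± 0.10 under CKI 2 (adjusted p = 3.78e-05 and 7.97e-05), and TFEB rose under CKI 2 from 12.1 to 23.2 CPM (0.93 ± 0.18, adjusted p = 2.76e-05). Of 9 tested lysosomal targets of the family, 7 were higher and 0 lower under gefitinib 75, and 7 higher and 0 lower under CKI 2, beside 27.6% and 24.1% of all genes higher, with medians of 0.75 and 0.41. GPNMB, a lysosomal glycoprotein, rose from 28.5 to 226 CPM under gefitinib 75 (2.99 ± 0.18), and WIPI1, an autophagosome protein, rose by 2.14 ± 0.12 under gefitinib 75 and 1.63 ± 0.12 under CKI 2. SQSTM1, an autophagy receptor, rose under CKI 2 from 424 to 844 CPM (0.99 ± 0.09). For CKI with gefitinib, 7 of the 9 fell short of the sum of the agents and 0 exceeded it, beside 19.5% and 20% of all genes, with a median of -0.49 beside 0 for all genes; with CKI 2 added to gefitinib 75, GPNMB fell to 42.2 CPM (-2.42 ± 0.17).

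The genes whose 16 group means were most like those of each member were found by Pearson's correlation of log2 CPM over 15788 other genes. The 16 points share libraries and the contrast between treated and untreated groups, so the values are descriptions. Most like RRAGD were TRPV3 (r = 0.979), GDPD1 (0.975), OCLN (0.974), CLHC1 (0.974) and GDF15 (0.973); GDF15, a secreted stress cytokine, had log2 fold changes of 4.86 under CKI 2 and 3.23 under gefitinib 75, and OCLN, a tight junction protein, of 1.77 and 1.26. Most like FNIP2 were MXI1 (0.988), RRAGC (0.978) and TBC1D9 (0.973), and close to RRAGC were MXI1 (0.983) and NATD1 (0.982). Most like FLCN were ZNF319, CCNJL and KLF9 (0.966 each), and most like FNIP1 was MANBA, a lysosomal mannosidase (0.938). Most like DEPTOR were PROS1 (0.977), APP (0.975) and CHURC1 (0.974), and most like RRAGB were C7orf31, PAEP and PQLC3 (0.968 to 0.970). RRAGA was most like HTRA1 (0.954), and MITF and SLC38A9 had no gene as close, with best values of 0.849 (KLF5) and 0.860 (CCDC126).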

How the data were processed

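H1975 cells gave 48 paired-end RNA-seq libraries, described as unstranded in the labels. The counts are whole numbers per gene symbol as deposited by the authors, not normalized; the submitters' processing notes name Trim Galore 0.4.2, STAR 2.5.3a, edgeR and build hg19, and the counter is not given in the sources used here. Groups and replicate numbers come from the labels, and the series' design text calls the 3 libraries of a group biological replicates.

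From the counts, genes were kept with edgeR 4.0.16's filter (minimum count 10, total 15; 15789 of 27978 symbols, 99.97% of counts), scaled by TMM and fitted by the quasi-likelihood method with 1 mean per group over all 48 libraries (32 residual degrees of freedom, R 4.3.3). All p-values are 2-sided and adjusted over all genes tested at 0.05. Combinations were compared with each agent and with the sum of the agents. Lengths and shared sequence come from GENCODE v29 on GRCh38, which is not the build of the files, so no gene coordinates are given from it; the promoter windows are RefSeq's. The members and lists were chosen with earlier results of these data known. Named list genes are the up to 2 called genes with the largest absolute change under gefitinib 75 and CKI 2 whose higher group mean was 1 CPM or more. CASTOR1, CASTOR2 and BMT2 stand in the file under those symbols. Likeness was ranked for the 3 closest genes (5 for RRAGD), of which the text gives some. A likeness result and a list result are not reported here. The fit was also run on simulated counts with the same spread for every gene and changes in a small part of the genes of 1 group. Those counts are simpler than these data, and the outcome is not reported here. Alternatives were DESeq2 1.42.0, other scalings, no filter, a stricter threshold, a replicate block, a term for the ALB libraries, fits of only the libraries compared, and each library left out. Same-numbered libraries did not deviate together (mean r = -0.009 over 360 pairs), so the numbers were not taken to pair cultures. Libraries of 1 group differed by 3.63 to 65.1 chi-square units per gene, and none was counted as a repeat of another.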

Additional observations from a re-analysis of the deposited data

Results flagged for a closer look

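The effect of gefitinib differed between cells with and without CKI in 8 of the 10 genes, by the test of that difference itself (1 higher and 7 lower, where 20% of all genes were higher and 19.5% lower). The effect with CKI less that without, averaged over the dose pairs, was -0.24 for RRAGA, -0.58 for RRAGB, -0.96 for RRAGC, -2.25 for RRAGD, -0.51 for FLCN, -0.98 for FNIP2, 0.38 for MITF and -0.62 for DEPTOR on the log2 scale. In RRAGD the gefitinib effect was 2.47 to 2.64 in cells without a preparation. CKI 1 alone had a mean of 2.69 CPM, and with gefitinib 50 and 75 the means were 5.15 and 5.18 CPM. On top of CKI 2, with a mean of 8.55 CPM, the gefitinib effect was -0.23 ± 0.15 at 50 µM, not past the threshold, and -0.45 ± 0.15 at 75 µM. The latter effect did not pass with the term for the ALB libraries (-0.58 ± 0.23, adjusted p = 0.0678). In DEPTOR it was 0.71 and 0.58 without a preparation, and 0.32 ± 0.12 (adjusted p = 0.079) and -0.17 ± 0.13 (adjusted p = 0.333) on top of CKI 2; with the term for the ALB libraries the last was -0.48 ± 0.17 (adjusted p = 0.0395).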

How the results depend on the processing

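No called value changed sign under any alternative. The counts of genes called for gefitinib and CKI alone, for CKI 2 added to gefitinib and for the CKI interaction stayed within 1.5 times under each. From 0 h to 24 h, 2 became 1 at an adjusted p under 0.01, 0 in a fit of only those libraries, 1 against library 3 alone, and 0 to 2 with a library left out. YFSJ 5 went from 0 to 1 under library-size scaling and DESeq2, while its calls over all genes went from 1023 to 1021 under library-size scaling. CKI 1 added to gefitinib 75 went from 6 to 3 at 0.01 and under library-size scaling, while its calls over all genes went from 5456 to 5666 under that scaling. Gefitinib 50 added to CKI 2 went from 2 to 0 at 0.01, to 1 under library-size scaling, without the filter, with the ALB term and in the fit of only those libraries, and to 0 to 2 with a library left out. With relative log expression factors and under DESeq2 that count was 3. The 1746 calls of that comparison over all genes became 1599 under library-size scaling and 1380 without the filter. They became 1181 with the ALB term, 1633 in the fit of only those libraries and 1762 with relative log expression factors. Gefitinib 75 added to CKI 2 went from 4 to 2 at 0.01 and with the ALB term, and to 2 to 4 with a library left out. Its calls over all genes went from 4760 to 2769 with the ALB term. Counts over all genes at 0.01, under DESeq2 and with a library left out are not given. The YFSJ interaction went from 0 to 1 under DESeq2 and to 0 to 1 with a library left out. With a replicate block 1 call was gained and none lost, DEPTOR for gefitinib 75 added to CKI 1 (-0.28, adjusted p = 0.0443, against -0.27, adjusted p = 0.0556); 9 of 48 libraries were closest to their own number. Library-size scaling moved the median of all genes by up to 0.198 (over 0.1 in 10 of 28 comparisons), and the share of calls that were higher by over 10 points in 16, from 47.1% to 69% for CKI 2, 47.2% to 64.5% for CKI 1, 50.8% to 61.1% for gefitinib 50, 68.7% to 83.3% for YFSJ 2.5, 42.9% to 62% for 24 h against 0 h and 46.3% to 69.9% between the CKI doses. Against gefitinib alone it went from 48.9% to 71% and 49.9% to 66.9% with CKI 1 (50 and 75 µM), 49.6% to 60.1% with CKI 2 at 50 µM and 56.8% to 68.3% with YFSJ 5 at 50 µM. Against the preparation alone it went from 49.2% to 71.3% and 49.4% to 64.2% for CKI 1, 50.5% to 64.9% and 50.5% to 62.3% for YFSJ 5 and 51.7% to 40.6% for CKI 2 at 75 µM, and for the YFSJ interaction from 38.1% to 27.6%. Among the 10 genes that scaling gained 11 calls and lost 8. DESeq2 gained 4 and lost 0. Counts of 6 to 17 per library limit RRAGD in the untreated and YFSJ groups.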
